A study of Mus musculus with 48 samples.

Results

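Sst, Ghrl and Gast are the 3 genes described here, out of 53465 genes in a count table of sorted mouse enteroendocrine cells. They were taken by name: each Ensembl identifier of the table was matched to its mouse symbol, and each symbol matched 1 row. Vertical sleeve gastrectomy (VSG) turns the stomach into a narrow tube, and the study asked whether the enteroendocrine transcriptome adapts to it. All mice were adult lean males on a C57BL6 background that carried Neurod1-cre and an EYFP reporter, so the sort was aimed at cells in which Neurod1, an endocrine transcription factor, had been switched on. The VSG mice had about 70% of the stomach taken out. The sham mice had laparotomy and a loose suture, and either ate freely (S_al, sham ad libitum) or were given restricted food that held their weight to that of the VSG mice (S_wm, sham weight-matched). All had liquid diet around surgery and chow thereafter, and all were fasted overnight and given glucose by gavage shortly before the tissue was taken. RNA-seq libraries came from duodenum (the first 5 cm of the small intestine), ileum (the last 15 cm) and colon with rectum. Each region held 5 S_al, 5 S_wm and 6 VSG libraries, 48 in all from 17 mice, of which 15 gave all 3 regions.

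Somatostatin (Sst) is the product of D cells and restrains the release of most other gut hormones and of gastric acid. Ghrelin (Ghrl) is made by X/A-like cells, mainly in the stomach and in lower amounts in the upper small intestine, stimulates appetite, and needs a fatty acid on the third residue to act on its receptor. Gastrin (Gast) is the product of G cells of the gastric antrum and the first duodenum and drives acid secretion. The peptide messengers are cut from longer precursors, and the mRNA level says nothing of the amount of peptide stored or released.

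Bases that code for the active peptides, in whole or in part, are shown, in places with flanking codons of the precursor. They define what each transcript stands for and how it differs from its nearest relative. They were read from GENCODE M21 transcripts on build GRCm38, written 5′ to 3′ on the coding strand. For somatostatin the last 28 codons are given (chr16:23889732-23889815, minus strand, exon 2), beside the last 28 codons of Cort (chr4:149125267-149125350, minus strand, exon 2), which codes for the related peptide cortistatin. Capitals mark the longest unbroken run of codons that give the same residues in both, 9 codons. Codons outside this run that also match are not marked.
Sst: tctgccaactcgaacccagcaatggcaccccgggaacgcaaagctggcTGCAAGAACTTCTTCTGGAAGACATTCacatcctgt
Cort: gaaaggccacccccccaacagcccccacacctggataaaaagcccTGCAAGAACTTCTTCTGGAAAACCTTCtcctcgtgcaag
The capitals were identical at 25 of 27 bases. The longest identical run between the coding sequences of Sst and Cort was 21 bases, shorter than the 50-base reads.

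For ghrelin the 28 codons after the signal peptide are given from the longer transcript, and 27 codons from a second one (both chr6:113719182-113719360, minus strand, across an intron). Capitals mark the third codon, the serine that carries the fatty acid.
Ghrl: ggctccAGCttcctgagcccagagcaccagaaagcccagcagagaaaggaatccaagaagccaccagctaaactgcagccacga
Ghrl isoform: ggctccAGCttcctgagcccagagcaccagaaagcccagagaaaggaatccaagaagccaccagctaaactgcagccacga
The second transcript lacked 3 bases, 1 codon at position 13 or 14 of the peptide. The deposited counts are per gene and do not separate these transcripts.

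For gastrin, 20 codons are given up to the end of the stretch shared with cholecystokinin (Gast chr11:100336828-100336887, plus strand, exon 3; Cck chr9:121490089-121490148, minus strand, exon 3). The stretches were set by that shared end, so they need not hold the whole of either peptide. Capitals mark the 11 codons that give the same residues in both, which include the amidated end that their common receptor binds.
Gast: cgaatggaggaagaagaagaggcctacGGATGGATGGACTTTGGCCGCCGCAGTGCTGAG
Cck: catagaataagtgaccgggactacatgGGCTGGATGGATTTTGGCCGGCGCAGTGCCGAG
The capitals were identical at 29 of 33 bases. The longest identical run between the coding sequences was 12 bases, shorter than the 50-base reads. Untranslated parts of the transcripts were not compared.

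Sst (ENSMUSG00000004366) lies at chr16:23889573-23890958 on the minus strand, Ghrl (ENSMUSG00000064177) at chr6:113716119-113719880 on the minus strand, and Gast (ENSMUSG00000017165) at chr11:100334407-100336996 on the plus strand, with 721, 1079 and 460 bases of merged exon. Exons of Ghrl overlap those of an antisense gene, Gm26982, and of an unnamed locus, Gm44033, which held 548 and 260 counts over all libraries. Whether the authors counted by strand was not given in the sources used here, so reads from these opposite-strand genes and from Ghrl may not be separable.

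Libraries held 4648651 to 17182463 counts, with a median of 6713018. The summed level of 4 enteroendocrine markers (Chga, Chgb, Scg2, Neurod1), in counts scaled to a common library size with edgeR's TMM factors (CPM), ranged from 33206 to 81682 in ileum, from 28545 to 98484 in colon and from 35053 to 71343 in 15 of the 16 duodenum libraries. The duodenum library of S_wm mouse 27 stood apart with 11185. It also held 34181 CPM of 6 enterocyte markers, against 4247 to 11770.2 in the other duodenum libraries, 2771 CPM of 4 Paneth cell markers, against 78.9 to 570, and 1846 CPM of 4 immune markers, against 20.8 to 633, of which Cd74, which epithelial cells also express, made up 1816. Without Cd74 the immune markers summed to 29.9 CPM in mouse 27 and to 0.542 to 11.5 in the others. For mouse 12 the sample description codes of ileum and colon were crossed against the tissue labels. The tissue labels were used.

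Sst fell from duodenum to ileum to colon. Its mean CPM was 4004 ± 1951 in duodenum, 1738 ± 864 in ileum and 81.1 ± 60.7 in colon (SD, n = 16 each). Per kilobase of exon, the scale on which genes can be compared with each other, the mean level of Sst was 5554 ± 2706 CPM per kb in duodenum, 2410.5 ± 1198 in ileum and 112 ± 84.2 in colon. It was the highest of the 3 genes in each region on that scale, and its rank among 53274 genes was 14 in duodenum, 15 in ileum and 185 in colon.

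In duodenum, Sst read 2409.6, 1468, 4432, 3901 and 3275 CPM in S_al mice 12, 13, 17, 19 and 32. It read 3436, 1881, 960.4, 7128 and 5744 CPM in S_wm mice 16, 21, 27, 29 and 31. In the 6 VSG mice the lowest was 2844, the median 4732 and the highest 7559 CPM. The 3 ranges overlapped, and the lowest value of all belonged to S_wm mouse 27.

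In ileum, Sst read 569.96, 631, 1380.5, 2901 and 873 CPM in S_al mice 12, 13, 19, 24 and 32. It read 1019, 567.8, 2787, 2711 and 2554 CPM in S_wm mice 16, 21, 27, 29 and 31. In VSG mice the lowest was 1236, the median 2032 and the highest 2547 CPM. The VSG range lay inside that of both sham groups.

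In colon, Sst read 47.98, 58.9, 99.5, 184 and 31.3 CPM in S_al mice 12, 13, 19, 24 and 32. It read 42.6, 38.3, 42.4, 252 and 109.9 CPM in S_wm mice 16, 21, 27, 29 and 31. In VSG mice the lowest was 23.7, the median 68.2 and the highest 96.4 CPM. The groups overlapped here too, and S_wm mouse 29 was the highest.

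Every ileum library was above every colon library for Sst, as held for 3.46% of the 15126 genes tested, and the level was higher in ileum in 16 of 16 mice. The log2 fold change of colon against ileum was -4.38 (SE 0.345, edgeR quasi-likelihood test, adjusted p = 2.18e-14), and of colon against duodenum -5.58 (SE 0.366, edgeR adjusted p = 4.28e-17). In these bulk samples, fewer D cells among the sorted cells and less Sst RNA per cell cannot be told apart.

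The step from duodenum to ileum was smaller. Sst was higher in duodenum in 14 of 15 mice, the exception being mouse 27, and the ranges overlapped. The log2 fold change of ileum against duodenum was -1.20 (SE 0.302, 95% CI -1.81 to -0.59, edgeR adjusted p = 0.00171), and -1.28 without the duodenum library of mouse 27. Libraries of the regions carried mostly different D50x index sequences, as given by the library titles: D502 marked 12 duodenum libraries and no other, and D501 was the only index found on both duodenum (4) and ileum (7). With index as a covariate the log2 fold change was -0.24 (edgeR adjusted p = 0.865). Within D501 the mean was 2028 ± 1025 CPM in duodenum and 1632 ± 891 in ileum, a difference in mean log2 CPM of -0.37 (exact permutation test, two-sided, p = 0.485, Benjamini-Hochberg adjusted p = 0.485 over 5 such within-index comparisons). The duodenum libraries of D501 were 3 S_al and 1 S_wm (mouse 27), with none from VSG. Without mouse 27 their mean was 2384 ± 904 CPM and the difference in mean log2 CPM was -0.68 (3 duodenum against 7 ileum libraries, no test). The part of the index in this difference cannot be told apart from that of the region outside D501.

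**Figure D1:**
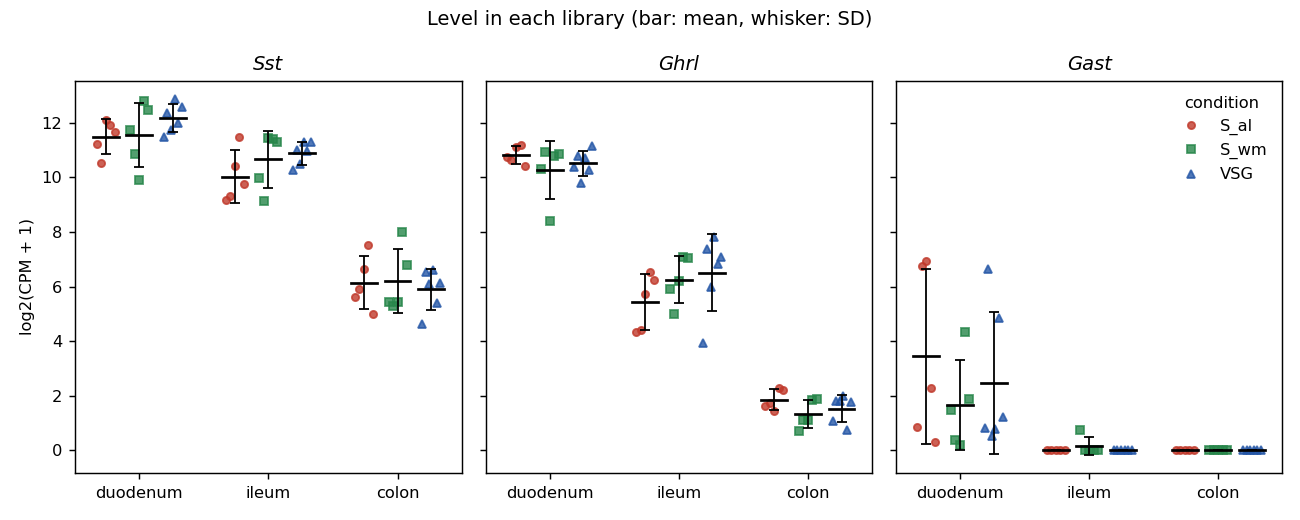
Level of Sst, Ghrl and Gast in each library, as log2(CPM + 1), by region (horizontal axis) and condition (red circles S_al, green squares S_wm, blue triangles VSG). Bars and whiskers are the mean and SD of the log2 values of the 5 or 6 libraries of a group. Sst and Ghrl step down from duodenum to colon with the conditions overlapping in each region, and Gast is at 0 in 31 of the 32 libraries of ileum and colon.

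Ghrl fell more steeply along the gut than Sst. Its mean was 1603 ± 522 CPM in duodenum, 87.8 ± 59.7 in ileum and 2.11 ± 0.976 in colon (SD, n = 16 each), which made the ileum level 5.48% and the colon level 0.132% of that in duodenum. The corresponding shares for Sst were 43.4% and 2.02%. Per kilobase of exon, Ghrl was at 1485 ± 484 CPM per kb in duodenum, rank 22, at 81.4 ± 55.3 in ileum, rank 315, and at 1.96 ± 0.905 in colon, rank 9674.

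In duodenum, Ghrl read 1707, 1589, 2206, 2350.2 and 1369 CPM in S_al mice 12, 13, 17, 19 and 32. It read 1283, 1962, 338, 1780.3 and 1880.5 CPM in S_wm mice 16, 21, 27, 29 and 31. In VSG mice the lowest was 887, the median 1508 and the highest 2252 CPM. The groups overlapped, and mouse 27 was again the lowest.

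In ileum, Ghrl read 19.3, 20.1, 51.9, 91.4 and 74.95 CPM in S_al mice 12, 13, 19, 24 and 32. It read 59.5, 30.9, 73.0, 134 and 132 CPM in S_wm mice 16, 21, 27, 29 and 31. In VSG mice the lowest was 14.4, the median 124 and the highest 227 CPM. The groups overlapped, and the highest and the lowest ileum library were both from VSG mice.

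In colon, Ghrl was near the limit of detection, with 3 to 24 counts per library. It read 2.07, 2.33, 1.69, 3.84 and 3.63 CPM in the S_al mice in the same order, and 0.616, 1.15, 1.15, 2.61 and 2.65 CPM in the S_wm mice. In VSG mice the lowest was 0.686, the median 2.45 and the highest 2.94 CPM. No group was separate from another.

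No library of a more distal region reached the level of any library of a more proximal one. Every duodenum library was above every ileum library, as for 0.959% of genes tested, and every duodenum library was above every colon library, as for 4.99%. The log2 fold changes were -4.31 for ileum against duodenum (SE 0.294, edgeR adjusted p = 1.92e-15), -9.59 for colon against duodenum (SE 0.391, edgeR adjusted p = 8.11e-24) and -5.28 for colon against ileum (SE 0.340, edgeR adjusted p = 4.53e-17). With index as a covariate the first 2 were -3.22 and -8.06 and still passed (edgeR adjusted p = 1.39e-05 and 2.4e-12). Within index D501, Ghrl was 1251 ± 624 CPM in 4 duodenum and 102 ± 69.6 CPM in 7 ileum libraries, which did not overlap (exact permutation test, two-sided, p = 0.00606, Benjamini-Hochberg adjusted p = 0.0101).

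Both genes tested in colon against ileum passed lower, where 25.4% of all genes tested did so. All 3 passed lower in ileum and in colon against duodenum, where 16.6% and 28.3% of genes did so. Gast passed the filter on low counts only through its duodenum libraries, so it had to differ and its test adds nothing.

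The low values of mouse 27 in duodenum went with its low content of enteroendocrine RNA. As a share of the summed CPM of the 4 enteroendocrine markers, Sst stood at 8.59% in mouse 27 and at 8.59 ± 5.28% in the other 15 duodenum libraries. Ghrl stood at 3.02% in mouse 27 and at 3.25 ± 0.949% in the others. On this scale mouse 27 was not low for either gene, and over all libraries Sst made up 8.59 ± 5.10% in duodenum, 4.19 ± 2.52% in ileum and 0.185 ± 0.208% in colon (SD, n = 16 each).

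Mice that were high for Sst in a region tended to be high in the others. After subtraction of the group mean of log2 CPM, Pearson's r between regions was 0.705 for duodenum and colon (15 mice), 0.703 for ileum and colon (16 mice) and 0.437 for duodenum and ileum (15 mice). The deviation had the same sign in 12 of 15, 13 of 16 and 11 of 15 mice. S_wm mouse 29 read 7128, 2711 and 252 CPM in duodenum, ileum and colon, and S_al mouse 13 read 1468, 631 and 58.9 CPM. For Ghrl the values of r were 0.228, 0.568 and 0.169 for the same pairs of regions, lower in the pairs that held duodenum. The regions of a mouse shared the animal and its time of tissue collection, and whether they shared a sort or a library batch was not given in the sources used here.

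**Figure D2:**
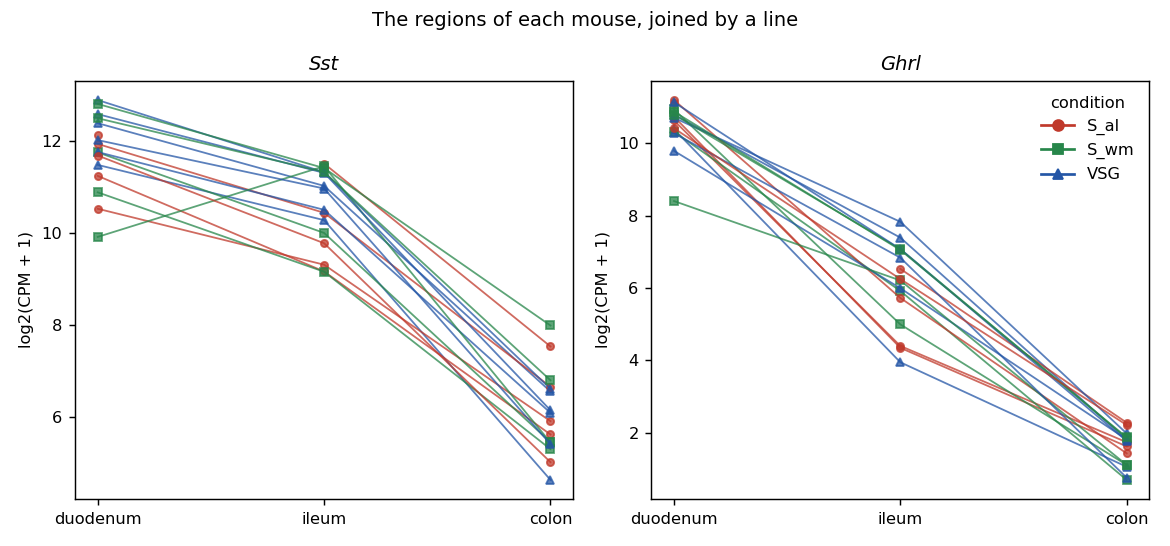
Sst and Ghrl as log2(CPM + 1) in each mouse, with the regions of a mouse joined by a line and the condition given by colour and marker. All lines for Sst descend from ileum to colon, by 10.7-fold in mouse 13 to 65.7-fold in mouse 27, S_wm mouse 27 rises from duodenum (960.4 CPM) to ileum (2787 CPM), and all lines for Ghrl descend at each step.

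Nearly all Gast counts came from duodenum, where they were uneven between libraries. The 16 duodenum libraries held 4388 counts, the 16 ileum libraries 4 counts, all in S_wm mouse 16, and the 16 colon libraries 0. Pooled over libraries, the colon level was at least 1121-fold lower than that of duodenum, with a floor of 3 counts over the group, and the ileum level was 828-fold lower (95% counting interval 323 to 3039). Intervals and floors cover counting error only.

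Among duodenum libraries Gast read 0.821, 108, 123, 3.87 and 0.247 CPM in S_al mice 12, 13, 17, 19 and 32. It read 1.75, 0.300, 0.1445, 18.98 and 2.64 CPM in S_wm mice 16, 21, 27, 29 and 31. In VSG mice the lowest was 0.4495, the median 1.03 and the highest 99.3 CPM. Each condition held low and high libraries, and the SD exceeded the mean in each: 47.2 ± 62.6 CPM in S_al (n = 5), 4.76 ± 8.01 in S_wm (n = 5) and 21.7 ± 39.5 in VSG (n = 6). The 3 libraries with the most counts, S_al mice 13 and 17 and VSG mouse 18, held 90.3% of all Gast counts in duodenum, and the first 5 held 97.7%. These shares are of raw counts, and the library of mouse 13 was also the deepest, at 17182463 counts. Sst and Ghrl, in the same 16 libraries, had coefficients of variation of 48.7% and 32.6%, against 178% for Gast.

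Genes of the gastric antrum and pylorus were found in duodenum libraries, and some but not others were higher where Gast was high. Gkn1, Gkn2 and Tff1, secreted by gastric surface cells, had 145 counts together in S_al mouse 13. This library, the deepest of all, had 1973 counts of Gast, and the counts here are not scaled for depth. These markers had 32 counts in VSG mouse 18 (981 of Gast), 32 in VSG mouse 28 (221 of Gast) and 30 in S_wm mouse 29 (104 of Gast). S_al mouse 17, with 1009 counts of Gast, had only 3 of them, and VSG mouse 22, with 3 counts of Gast, had 45. The remaining 10 libraries, with 1 to 26 counts of Gast, had 0 in 9 and 1 in S_al mouse 32. Gkn3, the most abundant antral marker, was present in all 16 libraries, with 106, 49, 83, 108 and 14 counts in the 5 libraries with the most Gast and 28 to 60 in the other 11, so it did not separate them. Muc5ac had 0 or 1 count in 4 of those 5 libraries and 14 in S_al mouse 17. The 5 antral markers summed to 3.03 to 17.7 CPM in duodenum, 0 to 2.21 in ileum and 0 to 2.49 in colon. Tff2, of mucous neck and Brunner gland cells, had 169, 34, 15, 158 and 30 counts in the 5 libraries with the most Gast and at most 8 in the other 11. Muc6, of the same cells, had 136, 116, 67, 333 and 31 counts in these 5 and 14 to 62 in the other 11, and the ranges overlapped. Pgc, which codes for a pepsinogen, was present at 64.6 to 239 CPM in all 16, with no split between these 5 libraries and the rest. Of the markers of parietal and chief cells, Atp4a had 84 counts spread over all 16 duodenum libraries (mean 0.586 CPM), Pga5 had 10, Chia1 had 5, Gif had 1 and Atp4b had 0. Whether gastric tissue at the proximal end of the segment contributed to Gast was not tested.

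**Figure D3:**
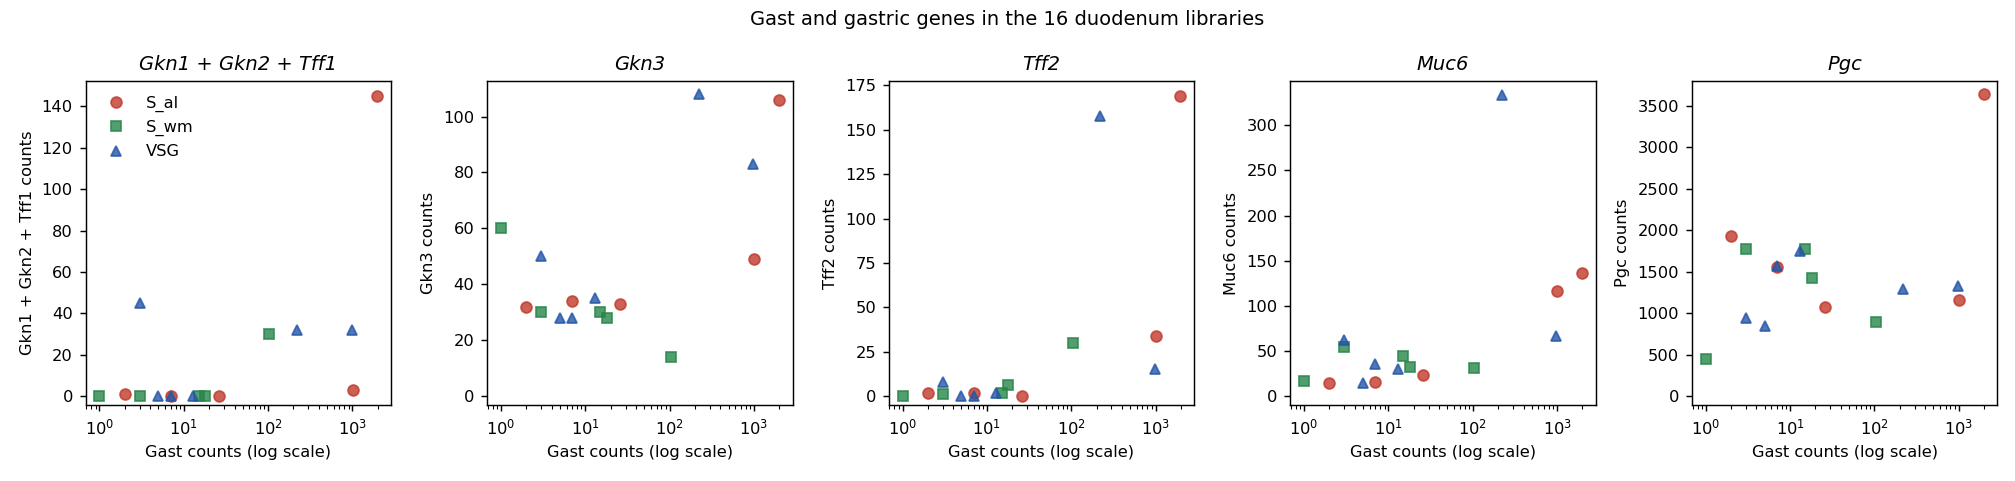
Counts of Gkn1 + Gkn2 + Tff1, Gkn3, Tff2, Muc6 and Pgc (vertical axes, linear, 1 panel each) against counts of Gast (horizontal axis, log scale) in the 16 duodenum libraries, with colour and marker for condition. The 5 libraries with 104 or more Gast counts have 15 or more of Tff2, above all others, while Gkn3 (14 to 108), Muc6 (14 to 333) and Pgc (447 to 3636) overlap between these libraries and the rest.

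Pancreatic tissue near the duodenum is another possible source of Sst, Ghrl and Gast. Of 6 islet markers, Ins1, Ins2, Ppy, G6pc2 and Mafa had 2, 5, 8, 9 and 23 counts over all duodenum libraries. The sixth, Iapp, which is also known from gut endocrine cells, had 6329 counts and was present in all 16 (mean 49.0 CPM, highest 94.9). The 8 acinar markers together reached at most 1.62 CPM in a duodenum library. Whether pancreatic tissue contributed to Sst, Ghrl or Gast was not tested. Of markers of enteric neurons, Ret had a mean of 160.2 CPM in duodenum, while Chat, Nos1 and Vip had means of 0.195, 0.0630 and 0.0260 CPM.

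The comparison of conditions asked whether VSG, or the weight loss that goes with it, changed these hormone genes in any region. A gene was compared in a region where its mean was at least 1 CPM. Sst and Ghrl, which reached this in all 3 regions, were also compared over the mean of the regions, an average of the single differences. Together this gave 27 differences for the 3 genes. None passed in edgeR, DESeq2 or limma voom with mouse as a random block, and 1 had an unadjusted p under 0.05 in each of the 3. In edgeR, 370 to 1500 of the 15126 genes tested had such a p in a single comparison of conditions. Across all genes tested, the share that passed was 0% for VSG against S_al in each region and over their mean. For VSG against S_wm it was 0.225% in duodenum, 0.0463% in ileum, 0.0595% in colon and 0.245% over the mean. For S_wm against S_al it was 0% in duodenum and ileum, 0.0132% in colon and 0.0529% over the mean.

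For Sst the log2 fold change of VSG against S_al was 0.66 in duodenum (95% CI -0.37 to 1.70), 0.63 in ileum (-0.40 to 1.67) and -0.37 in colon (-1.41 to 0.67). Group means were 4906 ± 1769 against 3097 ± 1182 CPM in duodenum, 1969 ± 541 against 1271 ± 965 in ileum and 65.1 ± 28.4 against 84.2 ± 60.9 in colon (SD, n = 6 and 5). Against S_wm, whose means were 3829.8 ± 2585, 1928 ± 1051 and 97.0 ± 91.6 CPM, the log2 fold changes were 0.36, 0.03 and -0.57. The upper bounds of the intervals in duodenum and ileum were 1.70 and 1.67 on the log2 scale, so changes up to that size are not separable from no change with these groups. With index as a covariate the duodenum value was -0.10. Against S_wm in duodenum it was 0.11 without mouse 27.

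The difference with an unadjusted p under 0.05 was Ghrl in ileum. Its mean was 119.7 ± 75.2 CPM in VSG (n = 6), 85.8 ± 45.6 in S_wm and 51.5 ± 32.3 in S_al (n = 5 each). The log2 fold change of VSG against S_al was 1.22 (SE 0.455, 95% CI 0.30 to 2.14) and did not pass (edgeR adjusted p = 0.653, and 0.371 to 1 over all alternatives). Values of the groups overlapped, and leaving out each mouse in turn gave 0.94 to 1.54. S_wm against S_al was 0.74 (95% CI -0.20 to 1.69) and VSG against S_wm 0.48 (95% CI -0.42 to 1.37), and the 2 VSG comparisons share the VSG libraries.

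In the other regions no difference of Ghrl passed. The log2 fold change of VSG against S_al was -0.27 in duodenum (95% CI -1.15 to 0.61) and -0.34 in colon (95% CI -1.62 to 0.94). Group means in duodenum were 1529 ± 476 in VSG, 1449 ± 675 in S_wm and 1844 ± 417 CPM in S_al. VSG against S_wm in duodenum was 0.08, and -0.18 without mouse 27.

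For Gast in duodenum the log2 fold changes were -1.12 for VSG against S_al (95% CI -4.11 to 1.88), 2.27 for VSG against S_wm (95% CI -1.09 to 5.64) and -3.39 for S_wm against S_al (95% CI -6.94 to 0.16, edgeR adjusted p = 0.807). The intervals span several log2 units, and the value depended on single mice: without 1 mouse in turn the last ranged from -5.31 to -2.65 and the first from -2.93 to -0.39.

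The effect of condition was not shown to differ between regions. The joint test of the interaction of surgery and region gave an unadjusted p of 0.547 for Sst and 0.136 for Ghrl (edgeR quasi-likelihood test, adjusted p = 1 for both), and 0% of all genes tested passed it. For Gast, compared in duodenum only, it was not made.

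**Figure D4:**
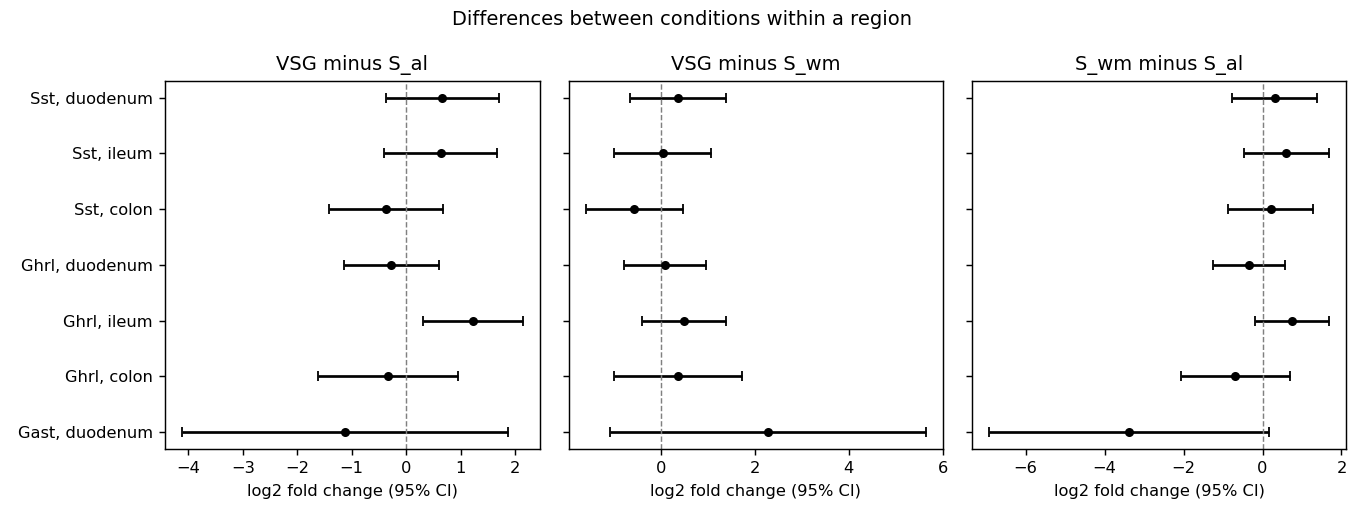
Log2 fold changes between conditions within each region for Sst, Ghrl and Gast, with 95% confidence intervals from the edgeR fit; the dashed line marks no change and the 3 panels have different scales. Only the interval of Ghrl in ileum for VSG against S_al (0.30 to 2.14) leaves 0 out, and its adjusted p was 0.653.

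Genes that act with the 3 hormones were read from lists written with earlier results of these data known. Of the somatostatin list (cortistatin and 5 receptors), 4 of 6 genes could be tested, and 3 passed in each comparison of regions, where 33.8% (ileum against duodenum), 55% (colon against duodenum) and 49.2% (colon against ileum) of all genes passed in either direction. The receptors moved in different directions, with a median log2 fold change of -0.84 in colon against duodenum beside -0.01 over all genes. Sstr2 was lower in ileum (-0.91) and colon (-1.52) than in duodenum, and Sstr3 was higher in both (0.83 and 1.02; edgeR adjusted p at most 0.00135 for all 4). Sstr5 was lower in colon against duodenum (-1.37, edgeR adjusted p = 7.34e-09), with 0.05 in ileum. Sstr1, the most abundant of the receptors in CPM (89.9 in duodenum, 123 in ileum, 71.0 in colon), was higher in ileum (0.45, edgeR adjusted p = 0.00943) and missed the threshold in colon against duodenum (-0.31, edgeR adjusted p = 0.0551). Cort and Sstr4 were at or below 0.0595 CPM in mean and were not tested.

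Of the ghrelin list, 3 of 4 genes were tested. All 3 passed in ileum and in colon against duodenum, and 2 in colon against ileum, beside 33.8%, 55% and 49.2% of all genes. Mboat4 reached the filter on low counts only through duodenum libraries and Ghsr only through ileum and colon, so both had to differ and their tests add nothing. Mboat4, the enzyme that attaches the fatty acid to ghrelin, was lower by a log2 fold change of -2.36 in ileum and -3.61 in colon (SE 0.432 and 0.472). Its level was 3.79 CPM in duodenum, 0.826 in ileum and 0.322 in colon. Leap2, a peptide that antagonises the ghrelin receptor, was also lower in ileum (-1.54, edgeR adjusted p = 0.00336), with -6.80 in colon. Leap2 was over the cutoff of the filter in 16 duodenum, 7 ileum and 0 colon libraries, so its colon tests add nothing. Its duodenum level was uneven, at 5.84 ± 9.54 CPM (SD, n = 16). Ghsr, the receptor, had log2 fold changes of 1.85 and 2.18, at 0.319, 1.05 and 1.32 CPM. In colon against ileum the log2 fold change of Leap2 was -5.26, to which the same limit of the filter applies.

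Of the gastrin list, 5 of 7 genes were tested, and 3, 4 and 5 passed in ileum against duodenum, colon against duodenum and colon against ileum, beside 33.8%, 55% and 49.2% of all genes. Cckar, at 0.0587 CPM in duodenum, 0.132 in ileum and 1.52 in colon, reached the filter only through colon libraries and had to differ. Without it 3, 3 and 4 of 4 genes passed. Cck, the close relative of Gast, was lower by a log2 fold change of -3.18 in ileum and -7.38 in colon. Casr, the calcium receptor through which G cells sense amino acids, was lower by -1.51 and -3.04. Grpr, the receptor for gastrin-releasing peptide, was higher in ileum (0.93) and lower in colon (-0.72). These values of Cck, Casr and Grpr passed (edgeR adjusted p at most 0.000781). Cckbr, the receptor for gastrin itself, had at most 0.145 CPM in mean in a region and was not tested.

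**Figure D5:**
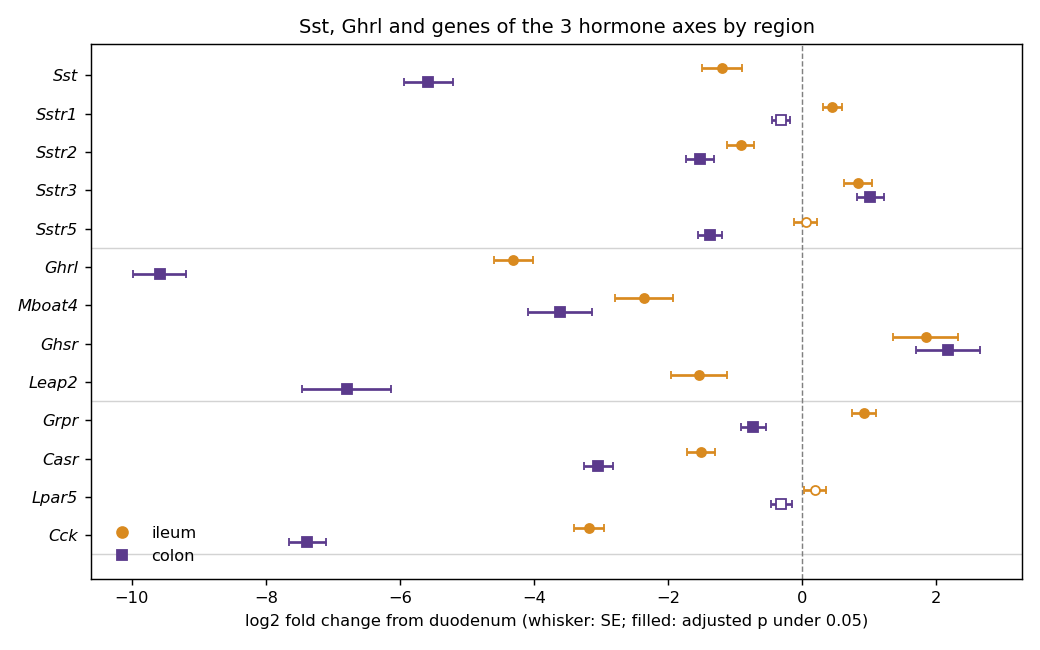
Log2 fold change of Sst, Ghrl and the tested genes of the somatostatin, ghrelin and gastrin lists in ileum (orange circles) and colon (purple squares) against duodenum, with SE as whiskers and filled symbols for an adjusted p under 0.05. Gast and Cckar are left out because groups near 0 give no usable fold. Leap2 lies on the side of Ghrl, and the somatostatin receptors lie on both sides of 0. Mboat4 and Ghsr had to differ because of the filter, as had Leap2 in colon.

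Of 10 genes for prohormone processing, 6, 7 and 5 passed in the same 3 comparisons, where 33.8%, 55% and 49.2% of all genes did so. Pcsk2, which codes for a convertase that cleaves many neuroendocrine precursors, was at 27.8 CPM in duodenum, 0.248 in ileum and 0.623 in colon, and it reached the filter only through duodenum, so it had to differ. Without it 5, 6 and 5 of 9 genes passed. Pcsk1, the other main convertase, was lower in colon (-3.04 against duodenum, -2.73 against ileum), with -0.31 in ileum against duodenum (edgeR adjusted p = 0.0663). Pcsk1n, an inhibitor of that enzyme, was higher in colon (2.64 and 2.31). Tpst1, a tyrosine sulfotransferase, was lower in ileum and colon (-1.88 and -1.63 against duodenum).

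Of 15 transcription factors of the endocrine lineage, 12 passed lower in ileum against duodenum and none higher, where 16.6% of all genes passed lower. In colon against duodenum 12 passed lower and 2 higher, where 28.3% of all genes passed lower. Hhex and Nkx6-3 reached the filter only through duodenum libraries and could only be lower elsewhere, and without them 10 of 13 passed lower in each comparison. Among these 13, Neurog3 and Pdx1 were over the cutoff of the filter in 3 colon libraries each, where 5 were needed. Their colon tests add nothing. Isl1, found in D cells among others, was lower in ileum (-0.94) and colon (-3.40). Hhex, a regulator of somatostatin cells in the pancreas, was at 2.27 CPM in duodenum, 0.868 in ileum and 0.328 in colon. Pdx1, a factor of the proximal duodenum and antrum, was lower by -3.18 and -5.87. Nkx6-3, known from gastric G cells, was at 6.39 CPM in duodenum, 0.0340 in ileum and 0.102 in colon. The enteroendocrine Neurod1, whose history defined the sorted cells, was lower by -0.70 and -1.35 (edgeR adjusted p = 0.000156 and 4.91e-11). No gene of these 5 lists passed in any comparison of conditions (444 values): edgeR, DESeq2 and limma voom each called 0, with 33, 36 and 20 at an unadjusted p under 0.05. Over all 15126 genes tested in edgeR, 370 to 1500 were under it in a single comparison of conditions.

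Genes that varied most like each member were found over the 16 duodenum libraries after removal of the condition means, by Pearson's r of log2 CPM, and over all 48 libraries. For Sst in duodenum these were Iapp (r = 0.973), Asic5 (0.955), Isl1 (0.951), Rgs4 (0.931) and Arl3 (0.921). For Ghrl they were Mreg (0.963), Hspa2 (0.947), Tulp4 (0.939), Ccdc157 (0.931) and Maged2 (0.921). For Gast they were Anp32a (0.862), Cldn18 (0.856), Tmem132e (0.837), Muc1 (0.821) and Tff2 (0.800). Their mean levels in duodenum were 83.7, 0.643, 6.31, 1.10 and 2.72 CPM in that order, and the median of Gast was 1.53 CPM. Several of these r thus rest on low counts. The libraries share the composition of each sort, and mouse 27 is among the 16. Sst and Ghrl had an r of 0.716 with each other, and Gast had 0.275 with Sst and 0.311 with Ghrl.

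Over all 48 libraries the region steps enter. Isl1 (0.977), Fabp5 (0.970), Scg2 (0.967), Rbp4 (0.966) and Tm4sf4 (0.959) were then most like Sst, and Isl1 was the 1 gene of the first 5 on both counts. Etnk1 (0.983), Cck (0.981), Rbp4 (0.9746), Gpx3 (0.972) and Reg4 (0.969) were most like Ghrl. Tff2 (0.817), Muc6 (0.799), Penk (0.782), Pcsk2 (0.736) and Rtl4 (0.733) were most like Gast. Each of these genes had a mean of at most 0.623 CPM in ileum and in colon. Iapp, first for Sst within duodenum, did not follow its region steps: its mean CPM was 49.0 in duodenum, 26.9 in ileum and 61.3 in colon.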

How the data were processed

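The authors sorted the cells by FACS, made stranded total RNA libraries from 2 ng of RNA, sequenced single-end 50-base reads and aligned them with STAR 2.5.1 to GRCm38 with Ensembl release 91 annotation. The deposited table holds raw counts per gene, whole numbers with no normalization. Groups came from the condition and tissue labels. Counts were fitted with edgeR 4.0.16 (quasi-likelihood, robust, R 4.3.3) on all 48 libraries, with 1 mean for each of 9 groups of condition and region, TMM scaling and filterByExpr, which left 15126 genes, and p-values were adjusted by Benjamini-Hochberg over all of them at a threshold of 0.05. CPM are counts scaled by the TMM-adjusted library size to the usual common total, log2 CPM used a prior count of 2, and 53274 genes matched GENCODE M21 for exon lengths. Libraries held 4648651 to 17182463 counts, and at the median depth of 6713018 a gene with 3 counts is at the floor of detection. The fit was tested on simulated data. Alternatives were DESeq2 1.42.0, its size factors, limma 3.58.1 voom, other filters, mouse as block, D50x index, and libraries left out.

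Same-numbered libraries come from the same mouse, so the numbers pair the regions. Over the 2000 most variable genes, deviations from group means correlated at a median of 0.111 over 46 pairs of libraries (-0.0704 to 0.391). For single genes the correlation over these pairs was 0.627 for Sst, 0.302 for Ghrl and 0.00494 for Gast. The main fit had no term for mouse. Differences between conditions over the mean of regions, and the test of interaction, thus took up to 3 libraries of a mouse as independent. No 2 libraries of a group agreed within sampling noise (105 pairs). The members, lists and tests were chosen with earlier results of these data known. Named genes were the members, list genes that passed in a comparison of conditions, the 3 largest changes per list between regions, and the 5 genes most like each member; other list genes were named for their role after their values were seen. The summed level of the enteric neuron marker list is not reported here.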

Additional observations from a re-analysis of the deposited data

Results flagged for a closer look

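Dixon's ratio was computed in the 21 groups of condition and region in which a gene was measured, and chance flags about 1 in 20 groups. For 2 groups, both of Gast in duodenum, a single library lay far above the others. In S_wm it was mouse 29 at 18.9777 CPM, with the others at 0.1445 to 2.6446. In VSG it was mouse 18 at 99.2987 CPM, with the others at 0.4495 to 27.8985. These mice had 30 and 32 counts of Gkn1, Gkn2 and Tff1 together, and the part of gastric tissue was not tested. No Sst or Ghrl library was flagged, that of S_wm mouse 27 included.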

How the results depend on the processing

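The direction and call of each comparison of regions held for Sst and Ghrl under each alternative but 1. With D50x index as a covariate, ileum against duodenum was -0.24 for Sst (edgeR adjusted p = 0.865). The tests of Gast between regions add nothing because of the filter. Its log2 fold changes with index were -6.89 in ileum and -7.23 in colon against duodenum, beside -8.93 and -9.93 in the main fit. Index and region largely coincide, and the cause was not tested. With the replicate block, mouse as a fixed term, ileum against duodenum was -1.30 for Sst and -4.51 for Ghrl. The random block in limma voom moved the ghrelin list in colon against ileum from 2 to 1 genes, and neither block changed a call for Sst or Ghrl. Without 1 mouse in turn, Sst in ileum against duodenum was -1.38 to -1.13. Among the comparisons of conditions, none of which passed under any setting, signs turned for Sst with D50x index (VSG against S_al in duodenum -0.10; S_wm against S_al in duodenum -0.35), with voom (VSG against S_wm over the mean of regions 0.20; S_wm against S_al in duodenum -0.014), and for Ghrl with index (VSG against S_al over the mean -0.015; VSG against S_wm in duodenum -0.0057) and without the duodenum library of mouse 27, an alternative chosen after seeing the data (VSG against S_wm in duodenum -0.18). Without 1 mouse in turn, Sst ranged for VSG against S_al from -0.58 to 0.13 in colon; for VSG against S_wm from -0.20 to 0.19 in ileum, -0.78 to 0.16 in colon and -0.26 to 0.35 over the mean; and for S_wm against S_al from -0.044 to 0.55 in duodenum, -0.53 to 0.70 in colon and -0.042 to 0.72 over the mean. Ghrl ranged from -0.18 to 0.21 for VSG against S_wm in duodenum and from -0.30 to 0.060 for S_wm against S_al over the mean. Without both libraries of mouse 12 whose codes were crossed, no call changed. Depth limits Ghrl in colon, at 3 to 24 counts per library, and Gast outside duodenum.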
